A study of Mus musculus with 14 samples.

Results

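The 41 genes described here belong to the interferon response and to the presentation of peptides by class I molecules of the major histocompatibility complex. They were followed in B16F10 cells, a mouse melanoma line of C57BL/6J origin that is a single established line, on 14 Affymetrix mouse expression arrays. The genes were taken from a fixed list, and each was read at 1 probeset (a set of short probes for 1 transcript), the brightest over all arrays. Of the 41 genes 37 could be read, among 12393 genes read in the same way. Isg15, a ubiquitin-like modifier, and Psme2, a proteasome activator subunit, were left unread because their only probeset carries several gene symbols. Ddx58, the RNA sensor RIG-I, and Nlrc5, an activator of class I genes, had no probeset under their symbol. The control cells (5 arrays) were untreated. The Lipofectamine cells (3 arrays) received Lipofectamine, a cationic liposome reagent, for 3 h in serum-free Opti-MEM medium. They then had 30 min in their usual medium with serum, so the liposomes and the change of medium and serum cannot be told apart. The heat shock cells (3 arrays) were kept for 1 h at 42.5°C and left for 30 min at 37°C. The benzyl alcohol cells (3 arrays) received 40 mM of this membrane fluidizer for 1 h at 37°C, with a recovery given as 3 h in one description and as 30 min in another. All groups share the line and were grown in RPMI medium with serum, apart from the 3 h of the Lipofectamine cells in serum-free Opti-MEM. The labels call the replicates biological, without saying what separates them, so a p-value here measures the spread between these arrays.

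Interferons are secreted proteins that warn cells of infection. Type I interferons such as interferon beta bind the receptor chains Ifnar1 and Ifnar2, and interferon gamma binds Ifngr1 and Ifngr2. The signal reaches the nucleus through Stat proteins and interferon regulatory factors, which bind the interferon-stimulated response element (ISRE) or the gamma-activated site (GAS) in the promoters of antiviral genes and of genes for antigen presentation. Class I molecules carry peptides cut by the proteasome, pumped into the endoplasmic reticulum by Tap1 and Tap2 and loaded with the help of Tapbp, and melanoma cells that show few of them are poorly seen by cytotoxic T cells.

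The cells expressed the genes of the pigment cell type that their label gives. Tyr, Tyrp1, Dct and Pmel read at mean log2 signals of 11.7, 12.8, 13.2 and 13.2 in the control arrays, and none of the 7 readable melanocyte markers was dim, where dim means below 6.17, the limit of the lowest 25% of genes. After Lipofectamine Mlph fell by 0.95, and after heat shock Sox10, Mlph and Tyr fell by 0.98, 0.97 and 0.39 (limma). Mitf gave −1.41 after Lipofectamine and −1.46 after heat shock, which did not pass (limma adjusted p = 0.0671 and 0.0528). Of the markers of other cell types, 4 of 8 for macrophages, 3 of 6 for lymphocytes, 5 of 7 for fibroblasts and 3 of 4 for endothelium were dim. Ptprc and Itgam read at 4.61 and 4.16, while Csf1r (7.98) and Cd3e (7.48) lay above the limit. Array medians lay between 7.03 and 7.12 after normalization, and arrays of one group correlated at 0.979 to 0.997 across probesets. Control replicates 1 and 3 stood apart from control replicates 2, 4 and 5 in many genes, a division seen in the signals and absent from the labels. Without control replicates 1 and 3, the falls of Mlph, Sox10, Tyr and Mitf named above all passed. Without control replicates 2, 4 and 5, Sox10 still passed after heat shock (−0.52, limma adjusted p = 0.0455). Mlph then did not pass after Lipofectamine (−0.45) or heat shock (−0.47), nor did Tyr after heat shock (−0.23). Mitf then gave −0.34 after Lipofectamine and −0.39 after heat shock, neither of which passed. Changes against the control are given for both sets of control arrays for H2-K1, H2-D1, B2m and the members that passed against the control.

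In untreated cells the class I probesets were well above the dim limit, while interferon beta and several antiviral genes were below it. The mean log2 signal over the 5 control arrays was 11.3 ± 0.37 (SD) for B2m, the light chain shared by all class I molecules. It was 8.82 ± 0.65 for H2-K1 and 9.33 ± 0.74 for H2-D1, the heavy chains of this mouse strain, the largest SDs among the 37 genes. Dim in the control arrays were 9 of the 37 genes. They were Ifnb1 (interferon beta itself), the factors Irf7 and Irf9, the antiviral genes Ifit3, Oasl2, Mx1 and Usp18, the GTPase Gbp2 and the immunoproteasome subunit Psmb8. For a dim probeset, signal from the transcript cannot be separated from background here. Signals of different probesets are not on one scale, so these levels do not order the genes.

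Promoter sequences show which members carry motifs of the pathway next to their start. In windows of 250 bases before to 50 bases after the start (RefSeq, build GRCm38.p6), 36 of the 41 genes could be matched. The ISRE-type letters GAAANNGAA, on either strand, were found in 15 of them (41.7%), beside 9.76% of 27025 genes and 8.56% of 32851 promoter windows. The GAS-type letters TTCNNNGAA were found in 10 (27.8%), beside 9.55% of genes and 8.3% of windows. A shorter core for interferon regulatory factors, AANNGAAA, was searched after these counts were seen and was found in 19 (52.8%), beside 26.7% of genes and 23.9% of windows. This core overlaps the ISRE-type letters in most windows. The stretches that follow are shown because the results turn on these genes. They are written in the direction of the gene, with the matched letters in capitals. The matches of H2-K1, H2-D1, Rsad2 and Gbp2 lie on the opposite strand and so appear here as their reverse complement.
B2m, chr2:122147533-122147571, plus strand, ISRE-type: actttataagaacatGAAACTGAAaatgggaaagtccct
H2-K1, chr17:34000415-34000452, minus strand, core: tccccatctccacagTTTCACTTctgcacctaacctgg
H2-D1, chr17:35262929-35262966, plus strand, core: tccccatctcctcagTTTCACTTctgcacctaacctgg
Rsad2, chr12:26456548-26456586, minus strand, ISRE-type: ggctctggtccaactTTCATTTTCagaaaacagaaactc
Irgm1, chr11:48871421-48871459, minus strand, ISRE-type: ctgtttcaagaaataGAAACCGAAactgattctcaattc
Gbp2, chr3:142620590-142620628, plus strand, ISRE-type: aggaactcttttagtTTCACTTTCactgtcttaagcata
Adar, chr3:89730736-89730767, plus strand, ISRE-type: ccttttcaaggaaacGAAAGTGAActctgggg
Ifit2, chr19:34550444-34550476, plus strand, GAS-type: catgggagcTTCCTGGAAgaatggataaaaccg
The H2-K1 and H2-D1 stretches are near copies of each other and hold the core without the ISRE-type letters. Irgm1 has a second ISRE-type match that overlaps the one shown. Adar has 3 windows, of which 1 holds the ISRE-type letters. That window has a further ISRE-type match, and a GAS-type match that lies unmarked inside the stretch shown. Ifit2 has 2 windows, of which 1 holds the GAS-type letters. Tapbp, Ifngr1 and Ifngr2, which also enter the results, had none of these letters in their window, which says nothing about the factors that act on them.

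The widest variation of the class I genes lay inside the control group. H2-K1 read 9.57 and 9.37 in control replicates 1 and 3 and 8.66, 8.48 and 8.01 in control replicates 2, 4 and 5. H2-D1 read 10.28 and 9.97 in the first pair and 8.76, 8.86 and 8.79 in the other arrays. B2m read 11.86 and 11.58 in the pair and 11.07, 11.24 and 10.96 in the others. All 3 transcripts were thus highest in the same pair of untreated cultures, with no overlap. The difference of the means at the probesets read here was 1.09 for H2-K1 (2.13-fold), 1.33 for H2-D1 (2.51-fold) and 0.63 for B2m (1.55-fold). Tapbp, which bridges class I molecules to the peptide transporter, was higher in the pair by 0.52 at the probeset read here and by 1.42 at its other probeset, while Tap1 and Tap2 differed by 0.00 and −0.12 and overlapped. At the probesets read here, these 2 class I heavy chains were the members that differed by 2-fold or more, 5.41% of the 37, beside 2.05% of all genes.

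Not all interferon genes followed the class I genes in the control arrays. Of the 37 members 12 were higher in control replicates 1 and 3 without overlap (all genes: 19.5%), and 5 were lower without overlap (all genes: 20.9%). The median difference of the members was 0.00, and that of all genes −0.04. Besides the class I genes, the higher members were the antiviral genes Rsad2 (0.81), Bst2 (0.66), Ifi35 (0.49) and Ifit1 (0.41), the RNA sensor Ifih1 (0.35), the factors Stat3 (0.37) and Irf3 (0.28), and the receptor chain Ifnar2 (0.19). The lower members were Ifit2 (−0.36), Irf1 (−0.21), Ifnb1 (−0.18) and the immunoproteasome subunits Psmb10 (−0.36) and Psmb8 (−0.21). Rsad2 and Ifit2, both induced by interferon in many cells, therefore stood on opposite sides of this division. Since the division was seen in these arrays, its values are a description without a test, and a cause was not tested.

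**Figure D1:**
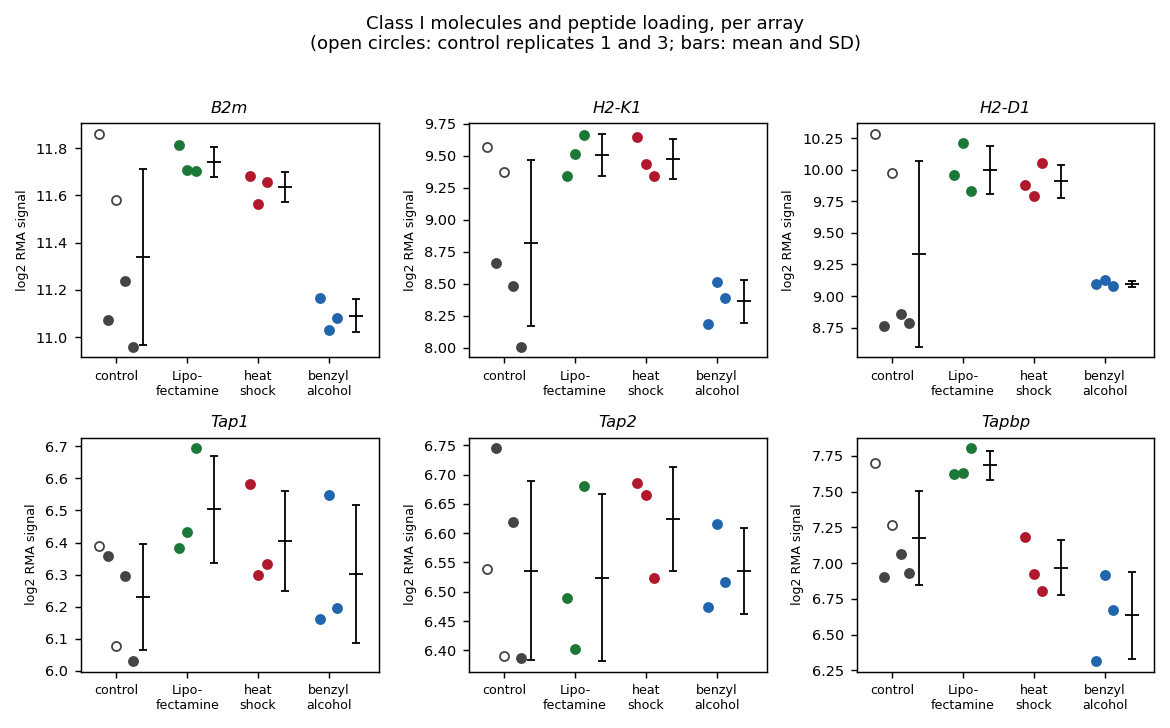
Log2 RMA signal (vertical axes) of the 6 readable genes of class I molecules and peptide loading in each array, by group (horizontal axes), with the group mean and SD beside the points. Open circles are control replicates 1 and 3, which lie with the Lipofectamine and heat shock arrays for H2-K1, H2-D1 and B2m, while control replicates 2, 4 and 5 lie near the benzyl alcohol arrays.

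Lipofectamine and heat shock arrays read high for the class I genes, but at the brightest probesets the change did not pass the test with all 5 control arrays. H2-K1 read 9.34, 9.51 and 9.66 after Lipofectamine, 9.65, 9.44 and 9.34 after heat shock, and 8.18, 8.51 and 8.39 after benzyl alcohol. H2-D1 read 9.96, 10.21 and 9.83 after Lipofectamine, 9.88, 9.79 and 10.05 after heat shock, and 9.09, 9.12 and 9.08 after benzyl alcohol. B2m read 11.81, 11.71 and 11.70 after Lipofectamine, 11.68, 11.56 and 11.66 after heat shock, and 11.17, 11.03 and 11.08 after benzyl alcohol. Within the treated groups the arrays were close together, and each treated group overlapped the range of the control arrays for all 3 genes. Against the control, Lipofectamine gave 0.69 ± 0.27 (SE) for H2-K1, 0.67 ± 0.31 for H2-D1 and 0.40 ± 0.17 for B2m on the log2 scale (limma adjusted p = 0.186, 0.264 and 0.210). Heat shock gave 0.66 ± 0.27, 0.58 ± 0.31 and 0.29 ± 0.17 (limma adjusted p = 0.174, 0.285 and 0.312). Benzyl alcohol gave −0.46 ± 0.26, −0.23 ± 0.29 and −0.25 ± 0.16 (limma adjusted p = 0.499, 0.809 and 0.554). The readings of H2-K1 and H2-D1 are uncertain in one respect. These are related genes, and the probesets read here carry the suffix for probes that may match related transcripts. Between control replicates 1 and 3 and the other controls, the single-symbol probesets of H2-K1 differed by −0.16 to 1.14. After Lipofectamine these H2-K1 probesets gave −0.03 to 0.69. H2-D1 has 9 single-symbol probesets, whose difference between the control arrays ranged from −0.14 to 1.33. One of them, dimmer than the one read here, passed after heat shock (0.36, limma adjusted p = 0.0205). The brightest H2-D1 probeset without that suffix gave 0.26 after Lipofectamine and 0.27 after heat shock, and neither passed.

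The control arrays chosen set the size, and in part the sign, of these class I changes. Without control replicates 1 and 3, the difference after Lipofectamine was 1.12 for H2-K1, 1.20 for H2-D1 and 0.65 for B2m (limma adjusted p = 3.2e-05, 1.1e-06 and 0.000225). After heat shock it was 1.09, 1.11 and 0.55 (limma adjusted p = 3.9e-05, 2.7e-06 and 0.000987), and after benzyl alcohol it was −0.02, 0.30 and 0.00, none of which passed. Without control replicates 2, 4 and 5, the difference after Lipofectamine was 0.03 for H2-K1, −0.13 for H2-D1 and 0.02 for B2m. After heat shock it was 0.00, −0.22 and −0.08, and after benzyl alcohol it was −1.11, −1.03 and −0.63 (limma adjusted p = 0.000106, 0.000164 and 0.00233). Class I transcripts were thus higher after Lipofectamine and heat shock when set against one part of the controls, and lower after benzyl alcohol when set against the other. Leaving out control replicate 1 alone moved the Lipofectamine values of H2-K1, H2-D1 and B2m to 0.88, 0.91 and 0.53, all past the threshold (limma adjusted p = 0.031, 0.030 and 0.022). The arrays left out were picked by their signals, so these p-values describe the arrays at hand and do not say which controls stand for untreated cells.

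**Figure D2:**
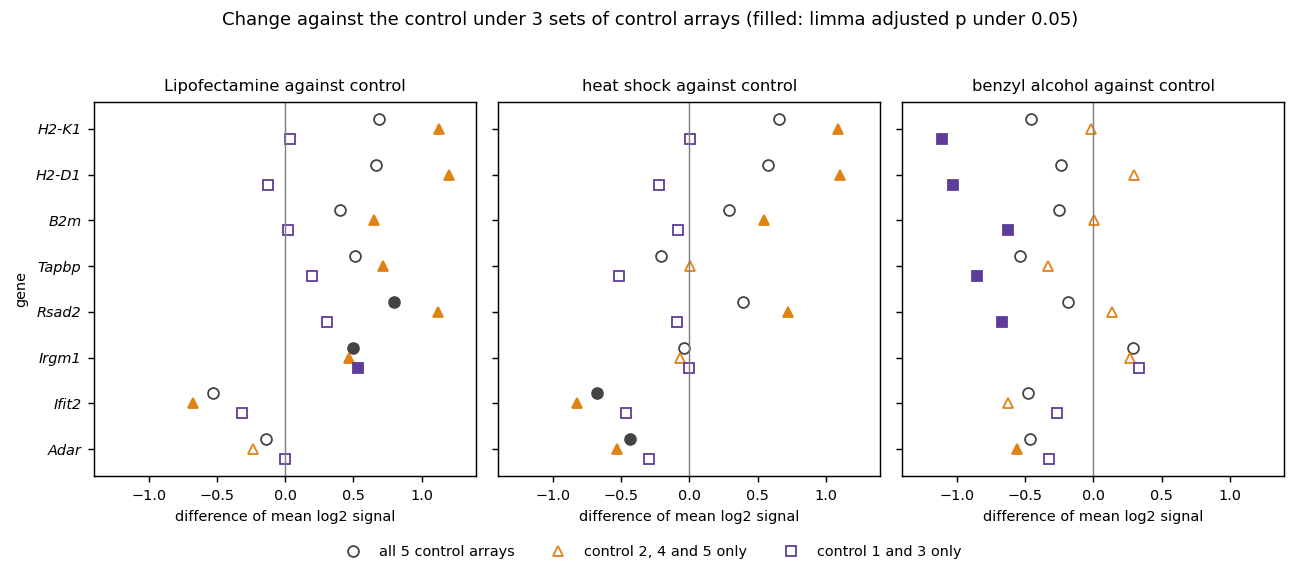
Difference of mean log2 signal against the control (horizontal axes) for 8 genes (vertical axis) after each treatment, computed with all 5 control arrays (circles), with control replicates 2, 4 and 5 (triangles) and with control replicates 1 and 3 (squares). Filled symbols have a limma adjusted p under 0.05, and only Irgm1 after Lipofectamine is filled for all 3 sets.

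After Lipofectamine, 2 of the 37 members rose and 0 fell, at a limma adjusted p under 0.05. This is 1 gene each of the antiviral effectors and the GTPases. Among all 12393 genes 1.69% rose and 3.33% fell in the same comparison. At an unadjusted p under 0.05 the count was 15 of 37 members (40.5%), beside 18.9% of all genes. The median change of the members was 0.14 on the log2 scale, with 25 of 37 above 0, and that of all genes was −0.02. Without control replicates 1 and 3, 13 members passed (11 higher and 2 lower, limma), where 18.9% of all genes passed. Without control replicates 2, 4 and 5, 1 member passed, where 4.77% of all genes passed.

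Irgm1, an interferon-induced GTPase that acts on membranes around engulfed microbes, rose after Lipofectamine. It read 7.03, 7.20, 7.005, 7.03 and 7.02 in control replicates 1 to 5 and 7.43, 7.49 and 7.74 after Lipofectamine. It read 7.10, 6.81 and 7.14 after heat shock and 7.54, 7.37 and 7.14 after benzyl alcohol. All Lipofectamine arrays lay above all control and heat shock arrays, and control replicates 1 and 3 lay among the other controls. The change was 0.50 ± 0.11 (1.41-fold, 95% interval 0.27 to 0.72, limma adjusted p = 0.0192). It was 0.47 without control replicates 1 and 3 and 0.53 without control replicates 2, 4 and 5, and it passed both times. It no longer passed without Lipofectamine replicate 1 (0.56, adjusted p = 0.0552) or 3 (0.40, adjusted p = 0.0862).

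Rsad2 encodes viperin, an antiviral enzyme of the endoplasmic reticulum and lipid droplets. Its signal was 8.57, 8.11, 8.89, 7.84 and 7.80 in control replicates 1 to 5. It was 9.13, 8.98 and 9.01 after Lipofectamine, 8.61, 8.71 and 8.59 after heat shock and 7.94, 8.06 and 8.17 after benzyl alcohol. All Lipofectamine arrays lay above all other arrays, with control replicate 3 next to them. The rise after Lipofectamine was 0.80 ± 0.20 (1.74-fold, 95% interval 0.36 to 1.24, limma adjusted p = 0.0418), and the other probesets of Rsad2 gave 0.82 and 0.84. The change was 1.12 without control replicates 1 and 3, and 0.31 without control replicates 2, 4 and 5, where it did not pass (limma adjusted p = 0.236). Of the 11 fits that left out 1 array it passed in those without control replicate 1 or 3, and in the other 9 its adjusted p was 0.0649 to 0.172. After heat shock Rsad2 gave 0.40 ± 0.20 (limma adjusted p = 0.267), which became 0.72 without control replicates 1 and 3 and −0.09 without the others.

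Several further members reached an unadjusted p under 0.05 after Lipofectamine without passing the adjusted threshold. Ifit2 gave −0.53 ± 0.15 (limma adjusted p = 0.0651), Gbp2 0.36 ± 0.11 (0.0680), Tapbp 0.51 ± 0.16 (0.0917), Ifngr2 0.35 ± 0.12 (0.109) and Ifih1 0.32 ± 0.11 (0.130). In Gbp2 all Lipofectamine arrays lay above all control arrays. Tapbp and Ifih1 were higher in control replicates 1 and 3 than in the others, by 0.52 and 0.35, and Ifit2 was lower (−0.36). The changes of these genes therefore shift with the control arrays used. In the class I and peptide loading group, the median over the 6 genes was 0.46, and 5 of the 6 were above 0. The 4 readable proteasome genes had a median of 0.04, and the 5 genes of interferon and its receptors one of −0.01.

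**Figure D3:**
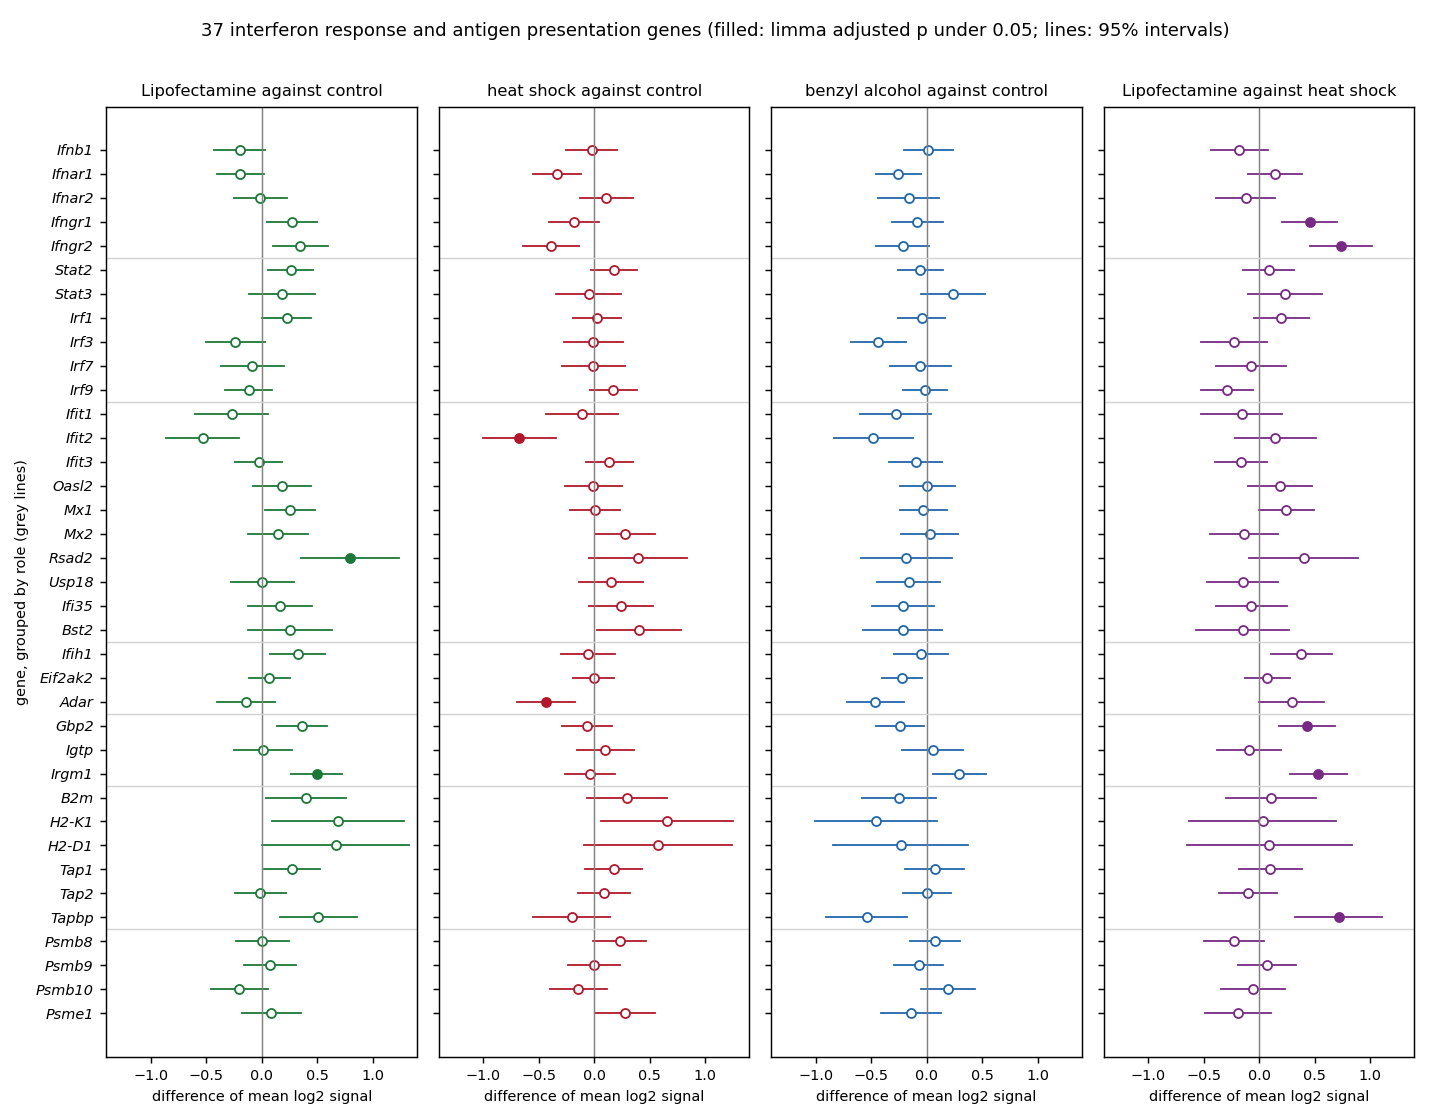
Difference of mean log2 signal (horizontal axes) in each of the 4 comparisons for the 37 readable genes (vertical axis), grouped by role, with 95% intervals as lines and filled circles for a limma adjusted p under 0.05. Filled are 2 genes after Lipofectamine, 2 after heat shock, 0 after benzyl alcohol and 5 between Lipofectamine and heat shock, and the intervals of H2-K1 and H2-D1 are the widest.

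After heat shock, 2 of the 37 members fell and 0 rose (limma adjusted p under 0.05). Of all genes 4.15% fell and 0.888% rose. At an unadjusted p under 0.05 the count was 8 of 37 (21.6%), beside 21.7% of all genes. The median change was 0.01 for the members and 0.04 for all genes. Without control replicates 1 and 3, 11 members passed (7 higher and 4 lower), where 20.6% of all genes passed. Without control replicates 2, 4 and 5, 0 members passed in limma, where 3.56% of all genes passed. At an unadjusted p under 0.05 there were then 7 members, and the share of all genes at that threshold was not counted.

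Ifit2, which binds foreign RNA and slows its translation, fell after heat shock. It read 7.51, 7.79, 7.76, 7.99 and 8.20 in control replicates 1 to 5. It read 7.20, 7.23 and 7.10 after heat shock, 7.21, 7.65 and 7.10 after Lipofectamine and 7.75, 7.18 and 7.19 after benzyl alcohol. All heat shock arrays lay below all control arrays, while 1 array each of the other treatments reached into the control range. The change after heat shock was −0.68 ± 0.15 (a ratio of 0.63, 95% interval −1.01 to −0.35, limma adjusted p = 0.0235). It was −0.82 without control replicates 1 and 3, and −0.46 without control replicates 2, 4 and 5, where it did not pass (limma adjusted p = 0.116). The fall did not pass without control replicate 4 or without any 1 of the heat shock replicates (adjusted p = 0.0587 to 0.111).

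Adar edits adenosine to inosine in double-stranded RNA and so keeps a cell's own RNA from being sensed. Its signal was 8.14, 8.04, 7.62, 8.14 and 8.15 in control replicates 1 to 5 and 7.50, 7.64 and 7.61 after heat shock. It was 7.89, 7.81 and 7.92 after Lipofectamine and 7.68, 7.62 and 7.36 after benzyl alcohol. Control replicate 3 read as low as the heat shock arrays, and the other 4 control arrays lay above every treated array. The fall after heat shock was −0.44 ± 0.12 (a ratio of 0.74, 95% interval −0.70 to −0.18, limma adjusted p = 0.0494), close to the threshold. Of the 11 fits without 1 array it passed in the one without control replicate 3 (−0.54), and in the other 10 its adjusted p was 0.0558 to 0.173. Benzyl alcohol gave −0.46 ± 0.12 (limma adjusted p = 0.0734). Without control replicates 1 and 3 these changes were −0.53 and −0.56 and both passed (limma adjusted p = 0.000799 and 0.0072). Without control replicates 2, 4 and 5 they were −0.30 and −0.32, and neither passed.

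The receptor chains Ifnar1 and Ifngr2 were next after heat shock. Ifnar1 read 8.15, 8.12, 8.24, 8.26 and 8.27 in control replicates 1 to 5, and 7.97, 7.90 and 7.75 after heat shock. It read 8.17, 8.06 and 7.81 after Lipofectamine and 8.02, 7.86 and 7.98 after benzyl alcohol. All heat shock and benzyl alcohol arrays lay below all control arrays. The differences of −0.33 ± 0.10 after heat shock (limma adjusted p = 0.0651) and −0.26 ± 0.10 after benzyl alcohol (0.234) did not pass. Ifngr2 gave −0.39 ± 0.12 after heat shock (limma adjusted p = 0.0666).

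**Figure D4:**
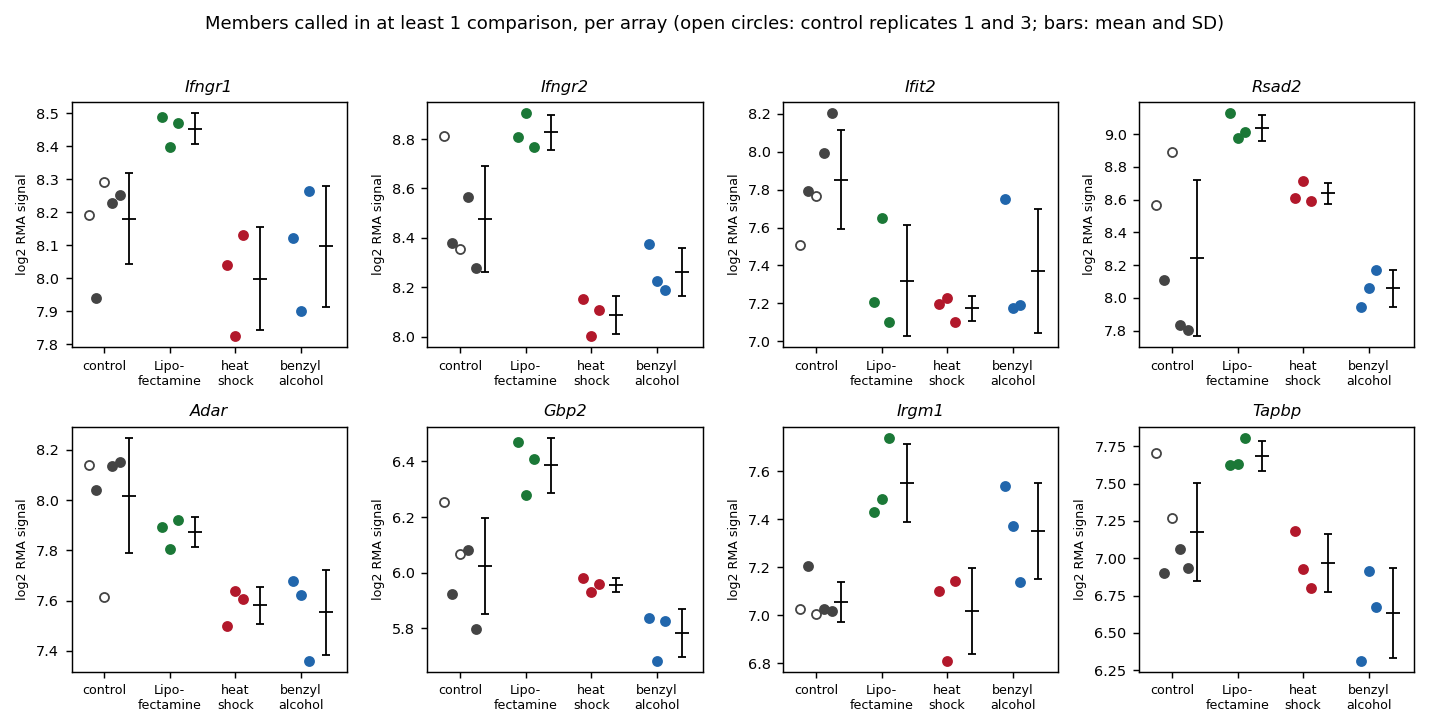
Log2 RMA signal (vertical axes) in each array, by group (horizontal axes), of the 8 genes that passed in at least 1 comparison, with the group mean and SD beside the points and control replicates 1 and 3 as open circles. Irgm1 has its highest mean in the Lipofectamine arrays, which overlap the benzyl alcohol arrays, and has narrow controls, Rsad2 has its controls spread from 7.80 to 8.89, and Ifit2 is lowest in the heat shock arrays and in part of the other treated arrays.

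After benzyl alcohol, 0 of the 37 members passed in limma with all 5 control arrays. Of all genes 0.726% rose and 0.694% fell. At an unadjusted p under 0.05 there were 8 members (21.6%), beside 13.3% of all genes. The median change was −0.10 for the members, with 28 of 37 below 0, and 0.02 for all genes. The smallest adjusted p belonged to Adar, followed by Irf3, a factor that switches on interferon beta, with −0.43 ± 0.12 (limma adjusted p = 0.0836). Irf3 read 9.02, 8.95 and 8.86 after benzyl alcohol, below all control arrays, of which the lowest was control replicate 5 at 9.09. This Irf3 probeset also carries the suffix for probes that may match related transcripts. The other probesets of Irf3 gave −0.30, −0.09 and −0.25, none past the threshold. Tapbp gave −0.54 ± 0.17 (limma adjusted p = 0.152). Without control replicates 1 and 3, 1 member (Adar) passed, where 2.65% of all genes passed. Without control replicates 2, 4 and 5, 11 members passed, 10 of them lower, where 13.4% of all genes passed. These were the class I genes, Tapbp, Irf3, Ifit1, Rsad2, Ifi35, Bst2 and Gbp2, with Psmb10 as the member that was higher. Cd68, a macrophage marker, rose by 0.90 after benzyl alcohol (limma adjusted p = 0.00374). Its mean was 5.31 in the control, where it was dim, and 6.21 after benzyl alcohol, just above the dim limit. The macrophage list of 8 genes had a summed log2 level of 9.49 to 9.70, beside 9.31 to 9.55 in the control. The part of Cd68 in these values was not tested.

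Lipofectamine and heat shock were also compared with each other, which does not involve the mean of the control arrays. After Lipofectamine 5 of the 37 members were higher than after heat shock and 0 were lower (limma adjusted p under 0.05). Of all genes 3.00% were higher and 1.18% lower. The median difference was 0.07 for the members and −0.07 for all genes. Both chains of the interferon gamma receptor were among the 5, with the GTPases Irgm1 and Gbp2 and the loading factor Tapbp. The class I genes themselves differed little, by 0.03 ± 0.31 for H2-K1, 0.09 ± 0.35 for H2-D1 and 0.11 ± 0.19 for B2m. Their 95% intervals were wide, from −0.63 to 0.69, −0.65 to 0.84 and −0.30 to 0.51. The fit takes its spread from the control arrays too, which varied more than the arrays compared. The SD of H2-K1 was 0.16 after Lipofectamine, 0.16 after heat shock and 0.65 in the control. For B2m it was 0.06, 0.06 and 0.37.

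Ifngr2, the signalling chain of the interferon gamma receptor, gave the smallest p in this comparison. It read 8.81, 8.90 and 8.77 after Lipofectamine and 8.15, 8.00 and 8.11 after heat shock. In control replicates 1 to 5 it read 8.81, 8.38, 8.36, 8.56 and 8.28, and after benzyl alcohol 8.37, 8.22 and 8.19. The control arrays thus lay between the treated groups, with control replicate 1 at the Lipofectamine level. The difference was 0.74 ± 0.13 (1.67-fold, 95% interval 0.46 to 1.02, limma adjusted p = 0.00581), and it passed in all 11 fits without 1 array. The other probeset of Ifngr2 gave −0.03, so the probesets of this gene disagree.

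Ifngr1, the ligand-binding chain, read 8.49, 8.40 and 8.47 after Lipofectamine and 8.04, 7.83 and 8.13 after heat shock. In control replicates 1 to 5 it read 8.19, 7.94, 8.29, 8.23 and 8.25, and after benzyl alcohol 8.12, 7.90 and 8.27. All Lipofectamine arrays lay above every other array. The difference from heat shock was 0.45 ± 0.12 (limma adjusted p = 0.0353). Tapbp read 7.62, 7.63 and 7.80 after Lipofectamine, 7.18, 6.93 and 6.80 after heat shock and 6.31, 6.92 and 6.67 after benzyl alcohol. Its control replicates 1 to 5 read 7.70, 6.90, 7.27, 7.06 and 6.93, so that replicate 1 lay among the Lipofectamine arrays. The difference from heat shock was 0.72 ± 0.18 (limma adjusted p = 0.0352), and the other Tapbp probeset gave 0.24. Against the control that probeset gave 0.99 after Lipofectamine and 0.75 after heat shock, neither past the threshold, where the probeset read here gave −0.20 after heat shock.

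Gbp2, a guanylate-binding GTPase, read 6.47, 6.28 and 6.41 after Lipofectamine and 5.98, 5.93 and 5.96 after heat shock. Its control replicates 1 to 5 read 6.25, 5.92, 6.07, 6.08 and 5.80, and the benzyl alcohol arrays 5.84, 5.68 and 5.82. The mean was below the dim limit in every group but Lipofectamine, whose arrays lay above every other array. The difference was 0.43 ± 0.12 (limma adjusted p = 0.0483), and the other, dimmer Gbp2 probeset gave −0.02. Irgm1 differed by 0.53 ± 0.12 (limma adjusted p = 0.0190). The calls of Ifngr1, Tapbp and Gbp2 were lost without any 1 of the Lipofectamine or heat shock replicates (adjusted p = 0.0565 to 0.172 for Ifngr1, 0.0579 to 0.141 for Tapbp and 0.0724 to 0.193 for Gbp2). They were also lost without control replicate 4 for Ifngr1 (adjusted p = 0.0504) and Gbp2 (0.0656), and without control replicate 2 for Gbp2 (0.0553). That of Irgm1 was lost without heat shock replicate 2 (0.43, adjusted p = 0.104).

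Interferon beta and the factors Stat2 and Irf1 did not pass in any comparison. Ifnb1 was dim in every group, at 5.66, 5.81, 5.63, 5.73 and 5.94 in control replicates 1 to 5, 5.55, 5.38 and 5.74 after Lipofectamine, 5.83, 5.70 and 5.67 after heat shock and 5.66, 5.74 and 5.90 after benzyl alcohol. Its groups overlapped throughout. Stat2, a transcription factor of type I signalling, read 6.44, 6.56, 6.35, 6.27 and 6.40 in control replicates 1 to 5 and 6.67, 6.59 and 6.74 after Lipofectamine. It read 6.51, 6.72 and 6.51 after heat shock and 6.25, 6.51 and 6.28 after benzyl alcohol. All Lipofectamine arrays lay above the control arrays, but the difference of 0.26 ± 0.09 did not pass (limma adjusted p = 0.138). The other, dimmer Stat2 probeset gave 0.03. Irf1, an activator of class I genes, read 8.08, 8.27, 7.98, 8.27 and 8.17 in control replicates 1 to 5 and 8.39, 8.25 and 8.50 after Lipofectamine. It read 8.30, 8.07 and 8.17 after heat shock and 7.99, 8.15 and 8.19 after benzyl alcohol. Its treated groups overlapped the control group, and all Lipofectamine arrays lay above all benzyl alcohol arrays. The Lipofectamine difference from the control was 0.22 ± 0.10 (limma adjusted p = 0.251).

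The transporter and proteasome genes likewise did not pass. Tap1 read 6.39, 6.36, 6.08, 6.30 and 6.03 in control replicates 1 to 5, 6.38, 6.43 and 6.69 after Lipofectamine, 6.58, 6.30 and 6.33 after heat shock and 6.16, 6.55 and 6.19 after benzyl alcohol. All its groups overlapped, with 0.27 ± 0.12 after Lipofectamine (limma adjusted p = 0.225). Psmb8, which replaces a standard proteasome subunit under interferon, read 5.87, 6.14, 6.01, 6.20 and 6.11 in control replicates 1 to 5. It read 6.22, 5.83 and 6.18 after Lipofectamine, 6.26, 6.40 and 6.23 after heat shock and 6.11, 6.21 and 6.10 after benzyl alcohol. The heat shock arrays were highest, by 0.23 ± 0.11 over the control (limma adjusted p = 0.238). Psmb9, Psmb10, Psme1 and Tap2 stayed within −0.20 and 0.28 of the control in every treatment.

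Most antiviral effectors did not pass in any comparison with all 5 control arrays. Ifit1, a sensor of RNA ends, read 6.51, 6.41, 6.94, 6.41 and 6.13 in control replicates 1 to 5, 6.44, 6.08 and 6.09 after Lipofectamine, 6.29, 6.40 and 6.40 after heat shock and 6.13, 6.05 and 6.41 after benzyl alcohol. Its values overlapped in all groups, with −0.27 ± 0.15 after Lipofectamine (limma adjusted p = 0.382). Bst2, tetherin, which holds budding viruses at the cell surface, gave 0.40 ± 0.17 after heat shock (limma adjusted p = 0.187) and 0.67 without control replicates 1 and 3. Over all 14 arrays the signal of Ifit3, Oasl2, Mx1, Mx2, Usp18 and Ifi35 stayed within a range of 0.59 to 0.75 on the log2 scale, and 1.32 for Rsad2. None of these 6 genes passed in any of the 4 comparisons. Mx1 gave 0.25 after Lipofectamine and Mx2 0.28 after heat shock (limma adjusted p = 0.202 and 0.208). Ifit3, Oasl2, Mx1 and Usp18 are dim, so background could hide a change of their transcripts. Ifnar2, Stat3, Irf7, Irf9, Eif2ak2, the sensor kinase PKR, and Igtp also did not pass in any of the 4 comparisons.

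Other genes of the pathway passed in small numbers, beside 5.02% of all genes after Lipofectamine, 5.04% after heat shock, 1.42% after benzyl alcohol and 4.18% between Lipofectamine and heat shock, both directions counted. Of 17 readable signalling genes (of 20 listed), Tbk1, the kinase that activates Irf3, rose after Lipofectamine by 0.93 ± 0.17 (limma adjusted p = 0.00966), and 0 fell. After heat shock, Mavs, the adaptor of the RNA sensors, fell by 0.42 and Pias1, a SUMO ligase, fell by 0.64. Of 31 further interferon-induced genes (of 39 listed), Samhd1, which degrades nucleotides, fell by 0.67 after Lipofectamine. In this list Ifitm2 rose by 0.33 and Pml fell by 0.51 after heat shock, and Lgals3bp fell by 0.56 after benzyl alcohol. Of 9 further class I and antigen processing genes (of 14 listed), the peptide-trimming enzyme Erap1 rose by 0.53 after Lipofectamine. Its signal was below the dim limit in every array, at 5.06 to 5.54 in the control and 5.69 to 5.74 after Lipofectamine. Signal from the Erap1 transcript can thus not be separated from background here. Among these genes Psme3, a nuclear proteasome activator, fell by 0.57 after heat shock. Between Lipofectamine and heat shock, Tbk1, Pias1 and Psme3 were higher by 0.78, 0.80 and 0.63, and Znfx1 was lower by 0.38. Of 10 readable class II pathway genes 0 passed in any of the 4 comparisons in limma, with 1 at an unadjusted p under 0.05 after Lipofectamine, 0 after heat shock and 0 after benzyl alcohol.

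The control arrays also set part of these calls. With control replicates 1 and 3 left out, the Lipofectamine change was 1.16 for Tbk1 and −0.87 for Samhd1. It was 0.64 for Erap1, whose probeset is dim, and each of these passed. With control replicates 2, 4 and 5 left out it was 0.58 for Tbk1, which passed (limma adjusted p = 0.0421), and −0.37 for Samhd1 and 0.36 for Erap1, which did not. After heat shock Pias1 passed with both sets of control arrays (−0.61 and −0.68), as did Lgals3bp after benzyl alcohol (−0.44 and −0.74). Mavs, Pml, Psme3 and Ifitm2 passed after heat shock without control replicates 1 and 3 (−0.46, −0.67, −0.61 and 0.33). They did not pass without control replicates 2, 4 and 5 (−0.36, −0.27, −0.50 and 0.32).

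Cxcl10, a chemokine induced by interferon gamma, divided the control arrays clearly and is named here after its values were seen. It read 10.85 and 10.96 in control replicates 1 and 3, and 7.48, 7.73 and 7.92 in control replicates 2, 4 and 5, a difference of 3.20 (9.17-fold). It read 10.62, 10.84 and 10.33 after Lipofectamine, 10.84, 10.83 and 11.82 after heat shock and 9.71, 8.94 and 9.76 after benzyl alcohol. The pair of control arrays lay among the Lipofectamine and heat shock arrays, and the benzyl alcohol arrays lay between the parts of the control group. With all control arrays the changes of 1.61 ± 0.72 after Lipofectamine and 2.18 ± 0.72 after heat shock did not pass (limma adjusted p = 0.248 and 0.0928). The changes of Cxcl10 without control replicates 1 and 3 were 2.89 after Lipofectamine, 3.46 after heat shock and 1.76 after benzyl alcohol, all past the threshold. They were, without control replicates 2, 4 and 5, −0.31 and 0.26, which did not pass, and −1.43 after benzyl alcohol, which did (limma adjusted p = 0.00267).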

How the data were processed

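RNA of untreated B16F10 cells and of cells given Lipofectamine, heat shock or benzyl alcohol was measured on 14 Affymetrix mouse expression arrays. The authors acquired the scans with GCOS 1.2 and applied RMA, and the deposited values are log2 signals. The version of RMA and the set of arrays normalized together are not given in the sources used here. Detection calls were not used here, so the precision of a value is limited by the number of arrays and, for dim probesets, by background.

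Differences between groups came from limma 3.58.1 in R 4.3.3. The 64 control probesets were left out, without a filter on signal, and 22626 probesets were tested, of which 20380 carry 1 gene symbol, 691 several and 1555 none. Symbols came from the platform annotation, and 20351 were matched to RefSeq through Entrez identifiers. One model held the 11 control, heat shock and Lipofectamine arrays, as the study compared these groups, and benzyl alcohol against control was fitted on all 14 arrays. Adjusted p-values are those of Benjamini and Hochberg across every probeset tested, with a threshold of 0.05. The study's own rule, an F-test and a pairwise p under 0.001, was an alternative. A gene was read at its brightest probeset, and background shares were counted over 12393 genes read likewise. The steps were tested on simulated data.

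The members, the lists and the removal of control arrays were chosen with earlier results of these data known. Values per array are given for members that passed in at least 1 comparison and for Ifnb1, Ifnar1, Stat2, Irf1, Isg15 (unread), Ifit1, B2m, H2-K1, Tap1 and Psmb8. Alternatives were other sets of arrays, the replicate block, a variance trend, array weights, further normalization, filters on probesets and leaving out each array.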

Additional observations from a re-analysis of the deposited data

Results flagged for a closer look

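In the control group 3 of the 37 genes had 1 array far from the other 4, by a gap of more than 0.71 of the range of the group, and chance alone gives about 1 in 20 such groups. Irgm1 read 7.20 in control replicate 2, with the nearest other array at 7.03 (gap of 0.882 of the range). Adar read 7.62 in control replicate 3, with the nearest at 8.04 (0.793). Ifngr1 read 7.94 in control replicate 2, with the nearest at 8.19 (0.719).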

How the results depend on the processing

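Counts of members passing were small and moved with most choices, and the cause was not tested. The share of all genes that passed, given as a percentage in brackets, moved as well. After Lipofectamine the count of 2 (5.02%) became 1 with only the arrays of both groups (1.94%), equal array medians (3.83%) and the study's threshold (2.21%). It was also 1 without control replicates 2, 4 and 5 (4.77%), and 0 with the replicate block (0.702%). The count became 13 without control replicates 1 and 3 (18.9%) and 19 with array weights (36.8%). For heat shock the count of 2 (5.04%) became 1 with only the arrays of both groups (3.88%) and with a variance trend (4.81%). It became 0 with the study's threshold (2.13%), with the replicate block (0.678%) and without control replicates 2, 4 and 5 (3.56%). Both with array weights (25.5%) and without control replicates 1 and 3 (20.6%) it was 11. For benzyl alcohol the count of 0 (1.42%) became 1 without control replicates 1 and 3 (2.65%) and 3 with array weights (3.99%). Without control replicates 2, 4 and 5 it became 11 (13.4%). For Lipofectamine against heat shock the count of 5 (4.18%) became 3 with a variance trend (3.87%). It became 2 with the replicate block (2.84%), with the mean of a gene's probesets (4.16%) and with the study's threshold (2.11%). It became 7 with only the arrays of both groups (9.93%). Without control replicates 1 and 3 (11%) or 2, 4 and 5 (8.96%) it was also 7. With array weights it was 16 (47.0%). Leaving out 1 array gave 0 (without Lipofectamine replicate 1 or 3) to 9 (without control replicate 1) after Lipofectamine, and 0 (without control replicate 4 or any heat shock replicate) to 5 (without control replicate 3) after heat shock. It gave 0 to 1 (without control replicate 3 or 5) after benzyl alcohol and 1 (without heat shock replicate 2) to 5 between the treatments. The direction turned without control replicates 2, 4 and 5 for H2-D1 after Lipofectamine (−0.13) and for B2m (−0.084) and H2-D1 (−0.22) after heat shock. After benzyl alcohol it turned without control replicates 1 and 3 for B2m (0.00297) and H2-D1 (0.30), and for H2-D1 the fits without 1 array gave −0.38 to 0.00337. Deviations of same-numbered arrays from their group means correlated at −0.56 to 0.44. Arrays of different numbers were not compared in this way, so these values do not decide whether the replicate numbers pair arrays. With the replicate block Rsad2 and Irgm1 after Lipofectamine gave 0.52 and 0.47, and Ifit2 and Adar after heat shock −0.51 and −0.35, none passing. There were then 9 members after Lipofectamine and 4 after heat shock at an unadjusted p under 0.05 (limma). The share of all genes at that unadjusted threshold was not counted with the block. The 3 to 5 arrays a group, and background for the 9 dim genes, limit what could be detected.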
